A study of Mus musculus with 2 samples.

Results

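Regions bound by NFKB2 and ELF3 were examined at 8 chemokine genes that NF-κB is known to drive: Cxcl5, Cxcl1, Cxcl2, Ccl2, Ccl7, Ccl5, Ccl20 and Cx3cl1. The genes were represented by 5 windows of the genome fixed by position, and every listed region that overlapped a window was taken. They held 21 of the 14217 NFKB2 regions and 39 of the 68319 ELF3 regions. The windows ran on chromosome 5 from 90887 to 91074 kb for the cluster of Cxcl5, Cxcl1 and Cxcl2, on chromosome 11 from 81906 to 82000 kb for Ccl2 and Ccl7 and from 83396 to 83441 kb for Ccl5, on chromosome 1 from 83073 to 83117 kb for Ccl20, and on chromosome 8 from 95478 to 95530 kb for Cx3cl1, together 422 kb.

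The regions came from CUT&RUN, where an antibody guides a nuclease to a chromatin protein and the DNA cut out around it is sequenced. The cells were cultured primary tubular epithelium from wild-type mouse kidney, given TNFα together with IFNγ, and yielded 2 libraries with the same batch label, 1 with an antibody against NFKB2 and 1 with an antibody against ELF3; how many animals were used is not stated in the labels. An unstimulated library was not analysed here, so nothing below is a response to the cytokines. Each antibody had a single library, so replicate spread could not be measured and no test was made. The 95% intervals given (exact Poisson for fragments and densities, exact binomial for shares and ratios) cover counting error only. The height of a region is given in fragments at its summit, recovered from the authors' deposited values, and its strength as −log10 q, the caller's own significance after adjustment. Both serve to describe and rank regions. Binding does not measure expression, so the labelled cell type was not checked against marker genes.

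Chemokines are small secreted or membrane-tethered proteins that draw leukocytes to a tissue, and injured tubules are a known source of them in the kidney. In mice Cxcl1, Cxcl2 and Cxcl5 encode ligands of CXCR2 that recruit neutrophils. Ccl2 and Ccl7 encode ligands of CCR2 on monocytes, Ccl5 a chemokine that attracts T cells and macrophages, Ccl20 the ligand of CCR6, and Cx3cl1 fractalkine, a membrane-anchored ligand of CX3CR1. NF-κB dimers activate such genes through κB sites. NFKB2 is the precursor and DNA-binding subunit of the non-canonical arm of the pathway, and ELF3 is an epithelial factor of the ETS family, which binds sites with a GGAA core.

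Gene starts of 4 of the 8 members were in the RefSeq promoter table of GRCm38.p6: Cxcl1, Cxcl2, Ccl20 and Cx3cl1. They are shown because they carry, or lack, the motifs searched for. The region lists hold sequence names found in GRCm39 while the processing notes give mm10, so regions were not placed on these stretches or on any gene start, and the windows were not checked against gene positions. Each stretch is the 150 bases before the transcription start, on the plus strand, with κB consensus matches and the ETS motif GGAAGT in capitals, either strand. The stretches lie at chr5:90891095-90891244 (Cxcl1), chr5:90903749-90903898 (Cxcl2), chr1:83116616-83116765 (Ccl20) and chr8:94772030-94772179 (Cx3cl1).
Cxcl1: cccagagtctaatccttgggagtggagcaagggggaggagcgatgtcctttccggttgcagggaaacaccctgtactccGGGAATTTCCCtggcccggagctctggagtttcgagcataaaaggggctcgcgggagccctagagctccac
Cxcl2: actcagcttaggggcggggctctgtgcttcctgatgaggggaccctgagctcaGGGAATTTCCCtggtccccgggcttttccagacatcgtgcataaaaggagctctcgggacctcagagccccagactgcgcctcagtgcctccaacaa
Ccl20: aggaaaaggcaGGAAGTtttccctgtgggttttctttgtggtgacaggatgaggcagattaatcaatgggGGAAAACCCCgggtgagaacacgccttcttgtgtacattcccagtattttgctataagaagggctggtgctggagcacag
Cx3cl1: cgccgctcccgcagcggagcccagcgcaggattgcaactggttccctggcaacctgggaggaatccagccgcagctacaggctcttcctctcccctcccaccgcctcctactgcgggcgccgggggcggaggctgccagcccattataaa

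Cxcl1 and Cxcl2 carried the same κB sequence, GGGAATTTCC, from -71 to -62 and from -97 to -88 relative to the start. Each of these overlaps a second match on the other strand, shifted by a single base. Ccl20 had a κB match on the minus strand, GGGGTTTTCC, from -80 to -71, and an ETS match from -139 to -134. Of the 4 members, Ccl20 alone matched both the κB consensus and GGAAGT in the 300 bases searched. The promoter of Cx3cl1 matched neither. The ETS search was for GGAAGT only, and every printed stretch holds the shorter GGAA core on the plus or minus strand. Among all 32851 promoters of 300 bases in the table, 4.51% held the κB consensus, 23.8% the ETS motif and 1.20% both.

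All 5 windows held regions of both factors. NFKB2 regions numbered 6 at the Cxcl cluster, 3 at Ccl2 and Ccl7, 2 at Ccl5, 2 at Ccl20 and 8 at Cx3cl1. ELF3 regions numbered 16, 4, 2, 10 and 7 in the same order. The balance of the counts differed between windows. Cx3cl1 was the only one of the 5 with more NFKB2 than ELF3 regions, by 8 to 7. With windows 10 kb wider or narrower on each side its counts were equal, at 9 and 9 or 7 and 7. Ccl20 had 5 ELF3 regions for each NFKB2 region. Over the whole lists there were 4.81 ELF3 regions per NFKB2 region, against 1.86 in the windows together.

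**Figure D1:**
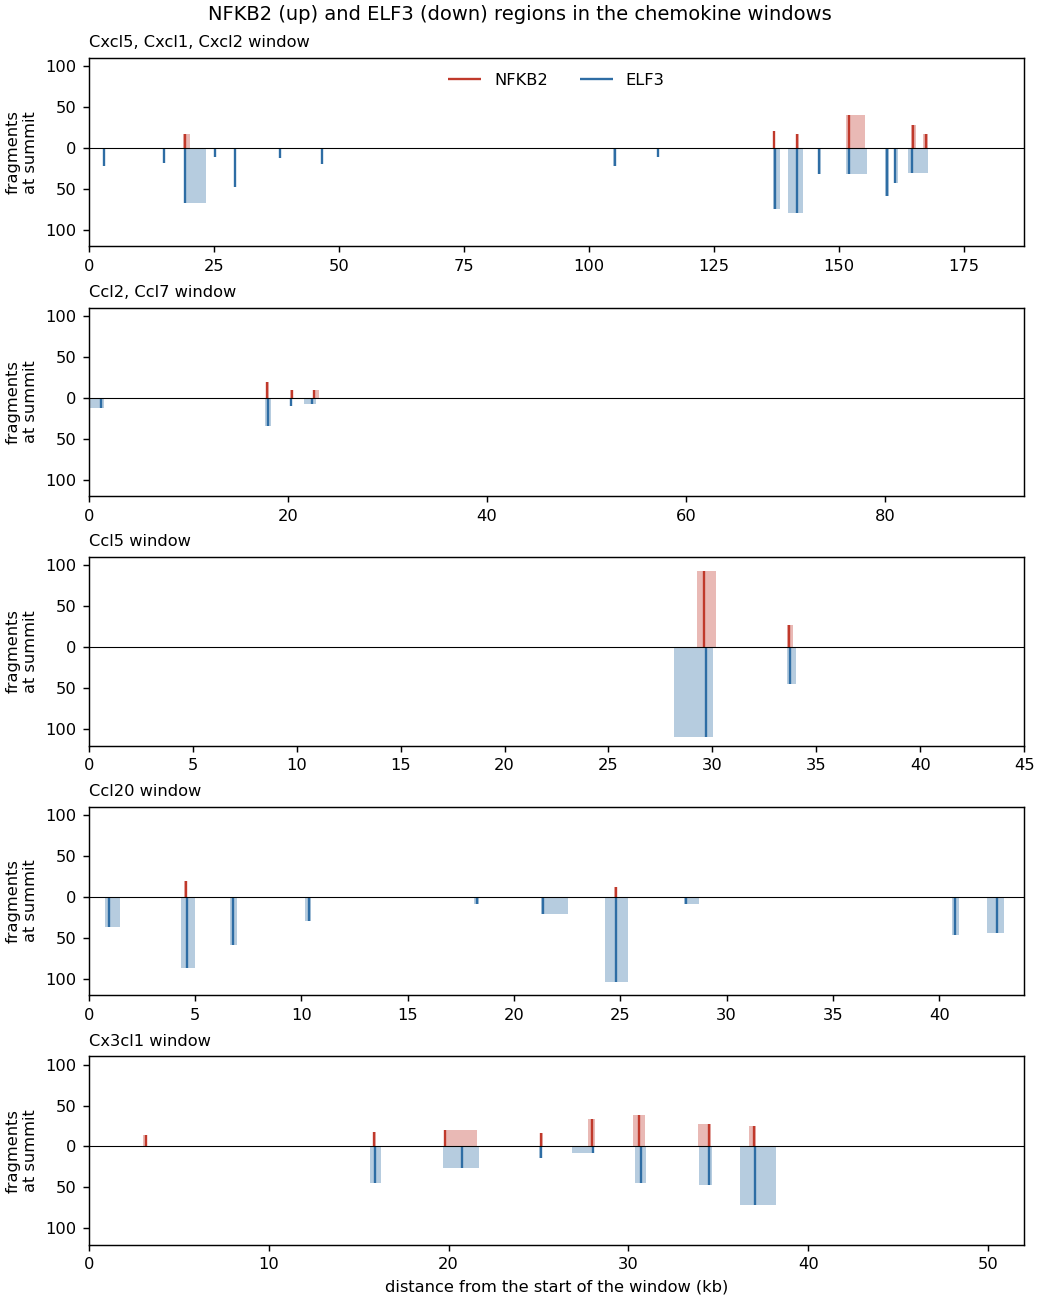
Regions in each window, plotted by distance from the window's start in kb, with bars for the extent of a region and lines for its summit, and height in fragments at the summit, NFKB2 upwards and ELF3 downwards. The NFKB2 region of 93 fragments stands in the Ccl5 window, and the 2 NFKB2 regions of the Ccl20 window reach 20 and 12 fragments beside ELF3 regions of 87 and 104.

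NFKB2 regions were dense in the windows, at 49.8 per Mb (30.8 to 76.1), against 5.53 per Mb over the autosomes and X. ELF3 regions reached 92.4 per Mb (65.7 to 126), against 26.6. NFKB2 covered 3.57% of the windows' length against 0.282% of the autosomes and X, and ELF3 covered 9.65% against 1.83%. Those averages include long stretches with no region of either factor. Tiles of the windows' own lengths that held at least 1 region of either factor were therefore counted. An NFKB2 region was present in 50.7% of such tiles of 187 kb (the length of the Cxcl cluster window), 41.2% of 94 kb (Ccl2 and Ccl7), 32.8% of 45 kb (Ccl5), 32.6% of 44 kb (Ccl20) and 34.3% of 52 kb (Cx3cl1). The 8 NFKB2 regions at Cx3cl1 compare with a 95th percentile of 2 and a highest count of 10 over the 52 kb tiles. The 6 at the Cxcl cluster compare with a 95th percentile of 5, and the 3 at Ccl2 and Ccl7, 2 at Ccl5 and 2 at Ccl20 were equal to theirs, 3, 2 and 2. For ELF3, the 16 regions at the Cxcl cluster, the 10 at Ccl20 and the 7 at Cx3cl1 lay above 95th percentiles of 15, 5 and 6, while the 4 at Ccl2 and Ccl7 and the 2 at Ccl5 lay below 9 and 5. The tiles were not matched to the windows for genes, and the members were chosen with earlier results of these data known. What part either has in these differences was not tested.

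NFKB2 regions lay on ELF3 regions almost throughout. In the windows 20 of 21 did so (95.2%, 76.2 to 99.9), against 96.8% in the whole NFKB2 list. ELF3 regions with NFKB2 were more frequent than in the list as a whole, 19 of 39 (48.7%, 32.4 to 65.2) against 19.7%. The share differed between windows. It was 7 of 7 at Cx3cl1, 2 of 2 at Ccl5, 3 of 4 at Ccl2 and Ccl7, 5 of 16 at the Cxcl cluster (31.2%, 11.0 to 58.7) and 2 of 10 at Ccl20 (interval 2.52% to 55.6%). Without the Cx3cl1 window the share was 37.5%. ELF3 regions in the windows were also wider and higher than in the list as a whole, with medians of 664 bp and 32 fragments against 418 bp and 22 fragments. Among the ELF3 regions in the top 20% of their list by −log10 q, 11 of 16 in the windows held NFKB2, against 51.9% in the list.

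**Figure D2:**
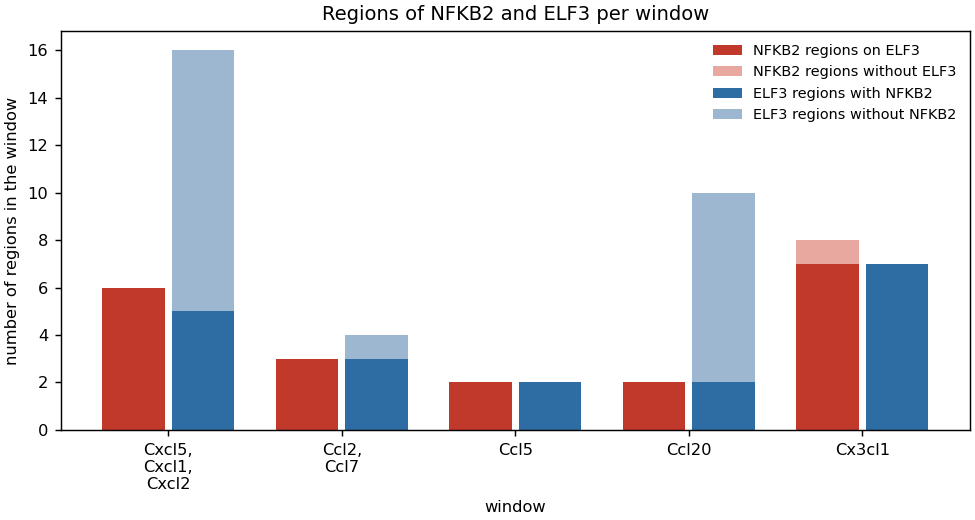
Number of NFKB2 regions (left bar) and ELF3 regions (right bar) in each window, each split by overlap of at least 1 bp with the other factor. All 7 ELF3 regions at Cx3cl1 hold NFKB2, while 8 of 10 at Ccl20 and 11 of 16 at the Cxcl cluster do not.

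Sequencing depth, as the lists imply it, was close: 10.6 fragments per kb for NFKB2 and 10.1 for ELF3, a ratio of 1.04. NFKB2 over ELF3 ratios were divided by it. How well each antibody recovers its factor was not measured, so a ratio compares fragments and not occupancy. The median ratio over the 20 shared NFKB2 regions of the windows was 0.572, against 0.388 over all shared regions (quartiles 0.272 and 0.561). NFKB2 had more fragments than ELF3 after this adjustment in 4 of 20, against 5.98% in the list. It had less than 0.5 of the ELF3 fragments in 7 of 20, against 68.4%. The interval of the ratio lay below 1 in 10 shared regions, spanned 1 in 9 and lay above 1 in 1. These 20 intervals were not corrected for their number. Summits nearly coincided, with a median distance of 46 bp against 41 bp over all shared regions, and 17 of 20 lay within 100 bp, against 75.5%. The pairs with summits farther apart were kept in the ratios above.

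**Figure D3:**
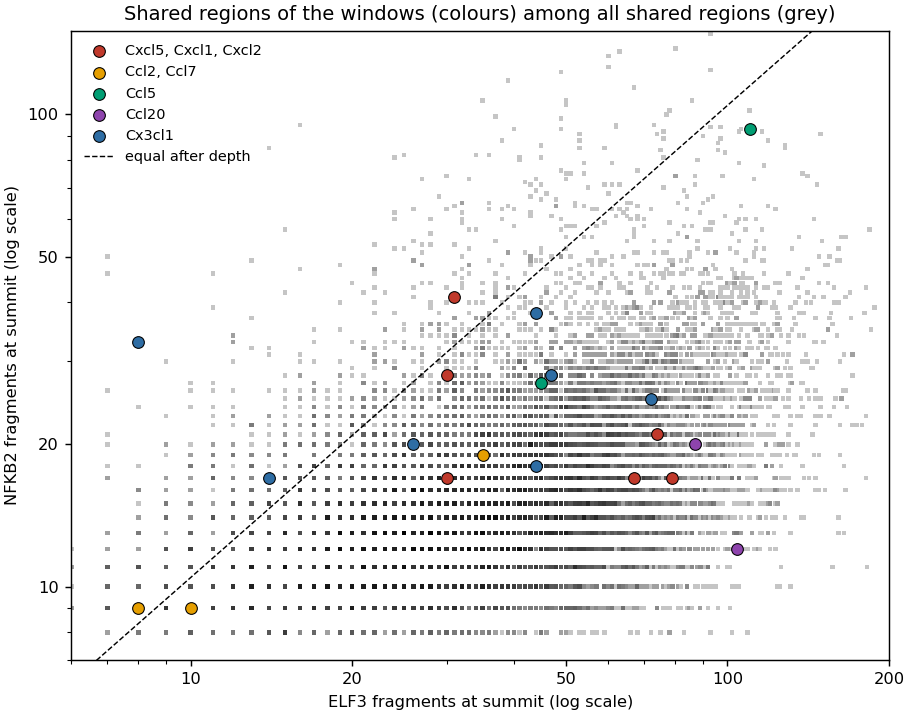
NFKB2 against ELF3 fragments at the summit of shared regions, both on log axes, with the windows in colour and all other shared regions in grey (darker where more pairs coincide; pairs beyond the ends of the axes are not drawn). The dashed line marks equal fragments after the depth ratio of 1.04. Above it lie 4 of the 20 window pairs, the farthest being the Cx3cl1 pair of 33 and 8 fragments.

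The neutrophil chemokines Cxcl5, Cxcl1 and Cxcl2 share the widest window, of 187 kb. In the RefSeq gene order Ppbp, Pf4, Cxcl3 and Cxcl15 stand between Cxcl5 and Cxcl1, and Cxcl2 follows Cxcl1, so these regions cannot be divided between the genes here. NFKB2 stood in separate places of the window. A single NFKB2 region lay at chr5:90905885-90907261, and 116.69 kb without NFKB2 separated it from the other 5, at 91023951 to 91054800. That gap held ELF3 regions, but ELF3 too was missing from a stretch of 58.2 kb within it.

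The strongest NFKB2 region of the Cxcl window was at chr5:91038460-91042229, with 41 fragments (29.4 to 55.6), and it ranked 437 of 14217 by −log10 q. At 3770 bp it was among the widest 0.331% of NFKB2 regions. ELF3 covered the same stretch, 91038456 to 91042612, with 31 fragments, and the summits were 37 bp apart. The ratio was 1.27, with an interval that spanned 1 (0.775 to 2.09). Next to it, NFKB2 regions of 28 and 17 fragments at 91051417 to 91052465 and 91053831 to 91054800 shared 1 ELF3 region of 3918 bp and 30 fragments. Their ratios were 0.894 (0.514 to 1.55) and 0.543 (0.281 to 1.02). The ELF3 summit was 70 bp from the first NFKB2 summit but 2773 bp from the second, the greatest distance of the 20 pairs, so the second ratio does not compare signal at the same place. The local background is the caller's control level at a summit, recovered from the deposited values. At the 2 NFKB2 summits it was 1.28 and 2.29 times its lowest level in the NFKB2 list.

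The other 3 NFKB2 regions of the Cxcl window had fewer fragments than the ELF3 regions they lay on. The one at 90905885 had 17 fragments, on an ELF3 region of 4347 bp with 67 fragments (ratio 0.243, 0.134 to 0.418). Those at 91023951 and 91028357 had 21 and 17 fragments, on ELF3 regions of 74 and 79 fragments, with ratios of 0.272 (0.159 to 0.446) and 0.206 (0.114 to 0.351). Within the window, the highest ELF3 summits were thus not the highest NFKB2 summits. Of the 11 ELF3 regions without NFKB2, the strongest lay at 91046133 to 91046911 with 58 fragments, 90916058 to 90916442 with 47 and 91048004 to 91048823 with 43. These 11 had a median of 22 fragments and a range of 11 to 58.

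Ccl2 and Ccl7, the monocyte chemokines, had the lowest median fragments of the 5 windows for both factors, 9 for NFKB2 and 11 for ELF3. The best of the 3 NFKB2 regions, at chr11:81923768-81924076, had 19 fragments (11.4 to 29.7) on an ELF3 region of 35 fragments, a ratio of 0.520 (0.281 to 0.934). The other 2, at 81926248 to 81926498 and 81928615 to 81929113, had 9 fragments each. They ranked among the last 20% of the NFKB2 list, with −log10 q of 2.09 and 1.91, and their ELF3 regions had 10 and 8 fragments. Their ratios were 0.862 (0.310 to 2.36) and 1.08 (0.369 to 3.21), with summits 64 and 241 bp apart. The fewest fragments of any listed region at the lowest background were 8 for NFKB2 and 6 for ELF3, so both pairs were close to the limit of detection. One ELF3 region had no NFKB2, at 81906110 to 81907514, with 12 fragments. The summits of all 3 NFKB2 regions lay between 17.9 and 22.6 kb from the window's start, and the last 70.9 kb of the window held no NFKB2 region. With −log10 q of 5 or more, 1 NFKB2 and 2 ELF3 regions remained.

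Ccl5, the T cell and macrophage chemokine, had 2 regions of each factor, all in the top 20% of their lists. The NFKB2 region at chr11:83425247-83426156 had 93 fragments (75.1 to 114), the most of the 21, and ranked 62 of 14217. ELF3 was at 83424163 to 83426013 with 110 fragments (90.4 to 133), its highest summit in the 5 windows, and ranked 437 of 68319. The summits were 52 bp apart and the ratio was 0.810 (0.608 to 1.08). The second NFKB2 region, at 83429604 to 83429878, had 27 fragments on an ELF3 region of 45, with summits 15 bp apart and a ratio of 0.575 (0.343 to 0.946). Local background was at the lowest level for the first pair and 1.38 times it for both factors in the second. No other region of either factor was listed in the 45 kb.

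Ccl20, which attracts CCR6-bearing T cells, dendritic cells and B cells, was an ELF3-rich window whose 2 NFKB2 regions ranked low, near 70.8% of their list. Their number was not low, being equal to the 95th percentile of 2 over the 44 kb tiles. ELF3 had 104 fragments (85.0 to 126) at chr1:83097300-83098361 and 87 (69.7 to 107) at 83077329 to 83078007. The NFKB2 region on the first had 12 fragments (6.20 to 21.0), a ratio of 0.110 (0.0553 to 0.201). Of all shared NFKB2 regions, 99.3% had a ratio as high or higher. The NFKB2 region on the second, at 83077461 to 83077621, had 20 fragments over a local background 3.05 times the lowest level, and a ratio of 0.220 (0.128 to 0.361). Its ELF3 partner had a background of 1.18 times the lowest level.

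Both NFKB2 regions at Ccl20 were narrow, 161 and 179 bp, with −log10 q of 4.79 and 4.60, and no NFKB2 region of the window had −log10 q of 5 or more, while 8 of 10 ELF3 regions did. Of the 8 ELF3 regions without NFKB2, those at 83113617 to 83113922, 83079648 to 83079986 and 83115262 to 83116067 were the strongest by −log10 q, with 46, 59 and 44 fragments. The 59 fragments stood over a local background of 2.43 times the lowest level. The remaining ELF3 regions without NFKB2 had between 9 and 37 fragments.

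Cx3cl1, fractalkine, had the most NFKB2 regions. In the RefSeq order it stands between Ccl22 and Ccl17, which encode further chemokines. Its 8 NFKB2 regions had between 14 and 38 fragments, and 4 of them were in the top 20% of the list. NFKB2 covered 8.67% and ELF3 13.9% of the 52 kb. From 15.9 to 37.0 kb after the window's start, 7 NFKB2 summits each had an ELF3 partner, and no ELF3 region of the window stood without NFKB2.

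The highest NFKB2 summit at Cx3cl1, at chr8:95508238-95508901, had 38 fragments (26.9 to 52.2) and 44 for ELF3, a ratio of 0.827 (0.521 to 1.31). The next, at 95505748 to 95506132, had 33 (22.7 to 46.3) beside only 8 for ELF3 (3.45 to 15.8), with summits 3 bp apart. Its ratio of 3.95 (1.79 to 9.90) was the single ratio of the 20 whose interval lay above 1, and 0.0436% of shared regions in the list had one as high. The ELF3 region there had a −log10 q of 3.09 and ranked 63204 of 68319. Its 8 fragments were close to the limit of detection, the fewest listed for ELF3 at the lowest background being 6. Regions of 28 and 25 NFKB2 fragments at 95511844 to 95512575 and 95514695 to 95515100 lay on ELF3 regions of 47 and 72 fragments, with ratios of 0.570 (0.344 to 0.930) and 0.332 (0.202 to 0.531).

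Towards the start of the Cx3cl1 window, the NFKB2 region at 95503087 to 95503250 had 17 fragments and its ELF3 partner 14 (ratio 1.16, 0.539 to 2.55). The one at 95497768 to 95499588 had 20 and 26 (0.737, 0.390 to 1.37), with summits 960 bp apart within regions of 1821 and 1993 bp. The one at 95493792 to 95493965 had 18 and 44 (0.392, 0.213 to 0.692). The NFKB2 region at 95481029 to 95481188 was the only one of the 21 without an ELF3 region. It had 14 fragments (7.65 to 23.5), a width of 160 bp and a local background 1.53 times the lowest level; all other regions at Cx3cl1 were at the lowest level.

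Within their own lists, the window regions spanned nearly the whole range of strength. For NFKB2 12 of 21 had −log10 q of 10 or more, against 37.8% of the list, and for ELF3 29 of 39, against 66.0%. NFKB2 had 3 regions in the first 5% of its list, 1 each at the Cxcl cluster, Ccl5 and Cx3cl1, and ELF3 had 6, none of them at Ccl2 and Ccl7. The median place of the NFKB2 regions was at 7.63% of the list for Ccl5, 19.3% for Cx3cl1, 30.4% for the Cxcl cluster, 70.8% for Ccl20 and 92.3% for Ccl2 and Ccl7. For ELF3 it was 9.25% at Ccl5, 15.6% at Cx3cl1, 22.7% at Ccl20, 32.0% at the Cxcl cluster and 81.4% at Ccl2 and Ccl7. The windows came in nearly the same order for both factors, and Ccl20 was the one that stood lower for NFKB2. A local background above the lowest level was found at 6 of 21 NFKB2 summits, against 29.7% of the list, and at 10 of 39 ELF3 summits, against 29.2%. Its part in the heights was not tested.

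**Figure D4:**
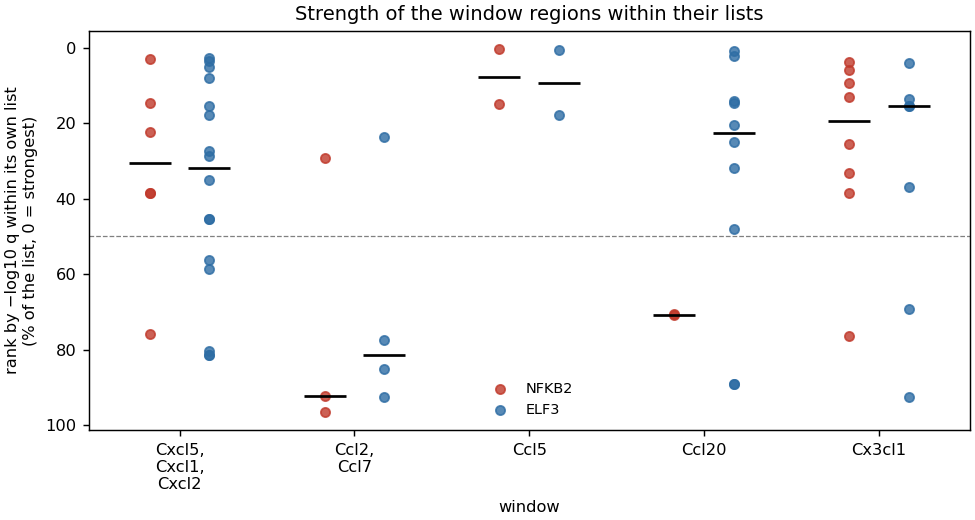
Place of every window region in its own list by −log10 q, in percent of the list with the strongest at the top, NFKB2 left and ELF3 right in each window, with black bars for medians and a dashed line at the middle of the list. At Ccl20 the NFKB2 regions lie near 70.8% and the ELF3 median at 22.7%.

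The windows' edges decided a few members. The ELF3 region nearest to an edge inside a window began 109 bp after the start of the Ccl2 and Ccl7 window, with 12 fragments. Just outside, ELF3 regions of 11 and 12 fragments lay 0.26 kb after the Cx3cl1 window and 1.54 kb before the Cxcl window. The nearest NFKB2 regions outside were 3.08 kb before the Ccl2 and Ccl7 window, with 14 fragments, and 4.07 kb after the Cx3cl1 window, with 15.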

How the data were processed

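Peak lists of 2 CUT&RUN libraries were used, grouped by the antibody named in the labels. Regions were called with MACS2 on mm10, per the submitters' processing notes; version, settings, aligner and filters: not given in the sources used here. Each deposited region has a score, a fold, a −log10 p and a −log10 q. The fold is a ratio, summit over local background, with the same constant added to both. The deposited score is 10 times −log10 q cut to a whole number. Sequence names such as MU069434v1 belong to GRCm39, so deposited coordinates, printed 1-based, were not joined to the GRCm38.p6 gene table, which gave names and gene order only, and planned results at promoters, at other target genes and for motifs under summits were not run. IgG, named as control in the design text, was not analysed here.

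Fragments (k) and background at each summit were solved from fold and −log10 p after MACS2's Poisson score, within 0.01 in −log10 p, scaled up above 100. A solution was found for 99.99% of NFKB2 and 99.999% of ELF3 regions. The simulated data used to test the recovery were made with the same formula, so they check the inversion only. Steps in the background gave fragment lengths of 129 and 121 bp and a control of 10.2 fragments per kb in both lists. The lowest background, 1.31 and 1.22, was found at 70.3% and 70.8% of regions. Regions overlapping by 1 bp were shared, and each NFKB2 region took the ELF3 region of most fragments. Tiles started at the first region of each autosome and X. Every NFKB2 region of a window was named, and of ELF3 regions without NFKB2 the 3 of highest −log10 q. The members and lists were chosen with earlier results of these data known. Python 3.11.15, scipy 1.17.1 and pandas 2.3.3 were used.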

Additional observations from a re-analysis of the deposited data

How the results depend on the processing

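The alternatives were −log10 q limits of 5 and 10, windows 10 kb wider or narrower on each side, other overlap rules, folds in place of fragments, the nearest ELF3 summit and no depth adjustment; leaving out each window and keeping only summits at the lowest background were added after the data were seen. Of 47 values over all windows, 43 stayed within 1.5 times, or for shares within their interval. With −log10 q of 10 or more, 12 NFKB2 regions remained, since fewer pass by construction. The share of NFKB2 regions on ELF3 became 100% with narrower windows, without the Cx3cl1 window and at the lowest background, since each drops the one region without ELF3. The share of ELF3 regions with NFKB2 ranged from 37.5% without the Cx3cl1 window to 60.9% without the Cxcl window, and was 43.6% when summits had to lie within 100 bp. Of 50 numbers per window, 14 moved by over 1.5 times, each a count of 10 or fewer. The excess of NFKB2 over ELF3 regions at Cx3cl1 was lost with wider windows (9 and 9) and narrower windows (7 and 7). It was also lost at the lowest background (7 and 7), and remained with −log10 q limits of 5 (7 and 6) and 10 (6 and 5). The median ratio was 0.562 by folds and 0.598 without the depth adjustment. Weak binding is not listed, and intervals on 2 to 8 regions a window are wide.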
